A study of Homo sapiens with 4 samples.

Results

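RNA-seq libraries of A549, an epithelial cell line from a human lung adenocarcinoma, were examined for 37 genes of glycolysis, lactate handling and the hypoxia response, out of 25192 genes in the tables. The genes were taken by symbol from a fixed list and were not picked by their measured values here, although earlier results of these data were known when the list was made. 2 libraries came from cells infected with the control empty virus (EV), a retrovirus with the pLZRS-IRES-GFP vector that carries GFP alone, and 2 came from cells infected with the FCN3 virus, in which the same vector also carries the full coding sequence of FCN3 with a V5 tag at its end. FCN3 is a secreted lectin of innate immunity. RNA was taken 48 h after infection in both groups. The cells grew in RPMI-1640 with serum, and a low-oxygen treatment is not named in the labels. All libraries describe 1 cell line, read from bulk RNA, and only those of the FCN3 virus are under forced expression of FCN3. The labels number the libraries 1 and 2 within each virus without saying whether a number marks a shared culture or day.

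Glycolysis splits glucose into pyruvate in the cytosol, and lactate dehydrogenase turns pyruvate into lactate so that NAD+ is regenerated. Cancer cells often run this route at high rates even with oxygen present. When oxygen is scarce, the prolyl hydroxylases of the EGLN family stop marking HIF1A protein for destruction, and HIF1A, together with ARNT, binds the motifs ACGTG or GCGTG in promoters and enhancers of genes for glucose uptake, glycolysis, lactate export, pH control and mitophagy. HIF1A itself is governed mainly at the protein level, which RNA-seq does not measure.

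The libraries held 35733735 and 16353554 expected counts (EV replicates 1 and 2) and 35031565 and 20136068 (FCN3 replicates 1 and 2), so that 3 counts corresponded to 0.082 to 0.179 CPM (counts scaled to the size of the library). FCN3 had 1 and 0 counts in the EV libraries against 722388 and 448352 with the FCN3 virus, where it took 4.16% and 4.47% of all TPM (a level per transcript length, scaled to the library). Keratin genes KRT7, KRT8 and KRT18 were abundant in all 4 libraries, EPCAM and CDH1 were low (1.09 to 3.65 and 3.35 to 9.53 TPM), and the summed markers of blood, endothelial and fibroblast cells lay at 3.5 and 8.77 TPM with the EV and at 4.1 and 9.49 TPM with the FCN3 virus, most of it COL1A1, with CD3E, MS4A1 and PECAM1 at 0 throughout. In bulk RNA, fewer cells that express a gene and less of its RNA per cell cannot be told apart.

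Of the 25 genes of glycolysis and pyruvate handling, 11 were lower and 5 higher with the FCN3 virus, led by lower PFKFB3 and LDHA and higher HK2 and ALDOC. Among the hypoxia genes, CA12 and EGLN1 were lower and NDRG1 and BNIP3L higher. Counts were normalized by the TMM method and compared with edgeR's quasi-likelihood test, paired by replicate number, over 14099 genes at an adjusted p (false discovery rate) of 0.01. Of the 37 genes, 36 had enough counts to be tested; 8 were higher, 15 were lower and 13 were not called, with CA9 left out for its low counts. In the same fit 19.1% of all tested genes were higher and 17.1% were lower, 36.2% in either direction. The 36 genes were more abundant than most (median 82.4 CPM, against 24.3 CPM for all tested genes), and among all genes at or above that median 54.8% were called, against 12 of the 18 glycolysis and hypoxia genes there. The median log2 fold change of the 36 genes was −0.10, against 0.01 for all tested genes.

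These calls depended on the pairing. Without the replicate number in the model, edgeR called none of the 36 genes, while 15 had an unadjusted p below 0.05. That unpaired test called 0.965% of all genes at 0.01 and 7.19% at an adjusted p of 0.05, where 2 of the 36 genes were higher and 5 lower. Unpaired DESeq2 called 7 of them (BNIP3L and NDRG1 higher, PFKFB3, LDHA, SLC16A3, EGLN1 and CA12 lower), beside 7.86% of the genes to which it gave an adjusted p. For 1 gene alone, permuting 4 libraries exactly allows no two-sided p smaller than 0.333, so that only models fitted across all genes were used. Read without any model, the FCN3 pair lay wholly above the EV pair in 8 of the 36 genes and wholly below it in 18, and the groups were apart in this way in 54.5% of all tested genes. A second dependence was the scale. ACTB and HPRT1, common reference genes, were themselves lower with the FCN3 virus (log2 fold changes −0.40 and −0.39), and scaling to them instead moved the median of all tested genes from 0.01 to 0.41, with 20 of the 36 genes then higher and 5 (PFKFB3, LDHA, SLC16A3, EGLN1 and CA12) lower. Paired DESeq2 kept 3 of the 8 higher calls (HK2, BNIP3L and NDRG1) and 11 of the 15 lower calls, losing SLC2A3, GPI, PGK1 and EGLN3. Directions below are relative to the TMM scale, on which the median gene is near 0.

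**Figure D1:**
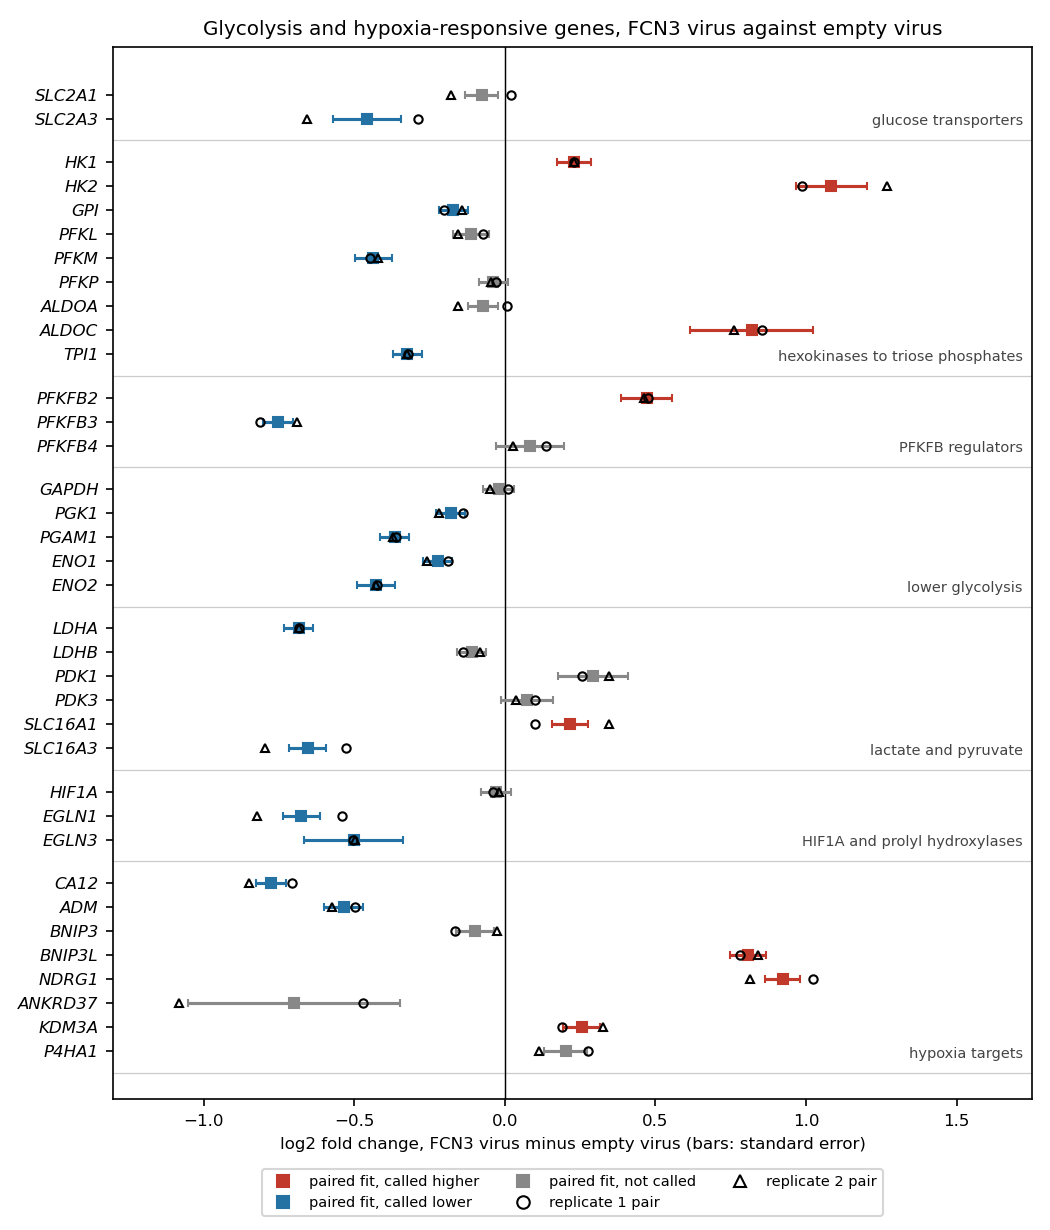
Log2 fold changes (FCN3 virus minus empty virus) of the 36 tested genes, grouped by role, with squares for the paired fit, bars for its standard error, and open circles and triangles for the replicate 1 and replicate 2 pairs taken alone. Both pairs lie on the same side of 0 for every called gene; GPI, TPI1, PGK1, PGAM1 and ENO1, drawn as lower, change sign when scaled to ACTB and HPRT1.

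The promoters of these genes show the HIF motif in genes of both directions, and 4 are printed for that reason: LDHA, EGLN1 and CA12, which were lower, and HK2, which was higher. The sequences are the 250 bases before the start of each gene from RefSeq on GRCh38.p14, 5′ to 3′ on the gene's own strand, and capitals mark ACGTG or GCGTG on either strand (CACGT and CACGC are their reverse complements, and the palindrome CACGTG holds ACGTG on both). They cover chr11:18394313-18394562 (LDHA, plus strand), chr1:231422288-231422537 (EGLN1, minus strand), chr15:63381847-63382096 (CA12, minus strand) and chr2:74833877-74834126 (HK2, plus strand).
LDHA: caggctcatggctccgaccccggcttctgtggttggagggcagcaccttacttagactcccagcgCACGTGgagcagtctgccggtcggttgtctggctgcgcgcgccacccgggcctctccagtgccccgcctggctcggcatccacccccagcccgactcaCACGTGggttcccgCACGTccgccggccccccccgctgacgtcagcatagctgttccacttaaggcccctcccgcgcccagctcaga
EGLN1: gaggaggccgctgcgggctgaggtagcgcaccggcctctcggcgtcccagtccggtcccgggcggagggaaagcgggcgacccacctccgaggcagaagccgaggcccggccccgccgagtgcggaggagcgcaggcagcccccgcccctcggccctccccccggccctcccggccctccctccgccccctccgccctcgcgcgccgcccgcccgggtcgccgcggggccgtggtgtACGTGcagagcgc
CA12: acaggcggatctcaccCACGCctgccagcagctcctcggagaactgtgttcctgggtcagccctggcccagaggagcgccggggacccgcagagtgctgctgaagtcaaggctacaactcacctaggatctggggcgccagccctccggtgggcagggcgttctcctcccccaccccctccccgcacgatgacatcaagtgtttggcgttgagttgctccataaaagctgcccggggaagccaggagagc
HK2: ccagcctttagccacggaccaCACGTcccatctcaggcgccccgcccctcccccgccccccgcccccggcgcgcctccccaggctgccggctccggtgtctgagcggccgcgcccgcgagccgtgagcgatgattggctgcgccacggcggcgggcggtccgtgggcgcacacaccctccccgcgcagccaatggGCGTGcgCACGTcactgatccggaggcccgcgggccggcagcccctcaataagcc
The LDHA stretch held 5 matches, that of HK2 held 3, and those of EGLN1 and CA12 held 1 each. RefSeq promoters were at hand for 32 of the 37 genes, and 22 of them (68.8%) held at least 1 match, as did 43.1% of 27305 promoters of the same length. Split by call, the motif was found in 3 of 4 genes that were higher, 9 of 14 that were lower and 9 of 13 that were not called. SLC2A3, PFKFB2, SLC16A1, BNIP3L and NDRG1 had no promoter to search. Only 4 of the 8 higher genes thus enter this split, without BNIP3L and NDRG1. CACGTG was found in 15.6% of the 32 promoters and in 6.49% of all, and TGATGNAA in 3.12% and 3.19%. A match describes the letters only.

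Glucose enters through facilitative transporters. SLC2A1 (GLUT1), the main transporter of most cancer lines, stood at 185 and 202 CPM with the EV and at 188 and 178 CPM with the FCN3 virus. The groups overlapped, and the log2 fold change of −0.08 (SE 0.05, edgeR adjusted p = 0.24, paired) turned to 0.32 when scaled to ACTB and HPRT1. SLC2A3 (GLUT3), a high-affinity transporter, was lower, with a log2 fold change of −0.46, but on the ACTB and HPRT1 scale it was at −0.07 and not called. It made up only 4.26% to 7.24% of the summed TPM of both transporters in any library.

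Hexokinases trap glucose as glucose 6-phosphate. HK2, the inducible isozyme of many tumours, measured 9.30 and 5.08 CPM with the EV and 18.4 and 12.3 CPM with the FCN3 virus. Both FCN3 libraries were above both EV libraries, although within each virus the replicate 2 library was the lower. Its log2 fold change was 1.08 (SE 0.12, edgeR adjusted p = 2.8e-11, paired), a 2.12-fold increase, and the unpaired adjusted p was 0.13. Unpaired and without 1 library, the log2 fold change was 1.63 (without EV replicate 1), 0.74 (without EV replicate 2), 0.72 (without FCN3 replicate 1) or 1.31 (without FCN3 replicate 2), and none of these passed the threshold. HK1, the constitutive isozyme, rose by 0.23 on the log2 scale and still supplied most of the TPM of HK1 and HK2. The share of HK2 was 5.10% and 2.92% with the EV and 8.32% and 5.85% with the FCN3 virus. The lower FCN3 library was thus close to the higher EV library. This share leaves out the hexokinase-like gene HKDC1, read with the other pathway genes below. HKDC1 had 42.9 and 41.1 TPM with the EV, where HK1 had 45.8 and 44.3 TPM. With the FCN3 virus HKDC1 was above HK1, at 77.0 and 83.3 TPM against 49.4 and 48.9 TPM.

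Most of the steps from glucose 6-phosphate to the triose phosphates read lower or did not pass. GPI, which makes fructose 6-phosphate, was lower by a log2 fold change of −0.17, and TPI1, which interconverts the triose phosphates, by −0.32; both change sign, to 0.22 and 0.07, on the ACTB and HPRT1 scale. Phosphofructokinase commits sugar to glycolysis, and its muscle-type gene PFKM was lower (log2 fold change −0.44; 77.4 and 75.4 CPM with the EV, 56.7 and 56.3 with the FCN3 virus), although on the ACTB and HPRT1 scale it was at −0.04 and not called. The other isozymes were not called: PFKL had a log2 fold change of −0.11 and PFKP −0.04. PFKP carried 84.9% to 87.3% of the family's TPM in every library, and the share of PFKM went from 7.39% and 7.09% with the EV to 5.64% and 5.59%. Counting without regard to strand could mix PFKM with the opposite-strand gene SENP1, and TPI1 with SPSB2, since their exons overlap and the strand setting is not stated.

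Aldolase splits fructose 1,6-bisphosphate. ALDOC, the brain-type isozyme, was read at 1.84 and 2.39 CPM with the EV and at 3.33 and 4.07 CPM with the FCN3 virus. All of these are low levels, from 40 to 113 counts, and the groups did not overlap. The log2 fold change was 0.82 (SE 0.20, edgeR adjusted p = 7.4e-04, paired; 0.13 unpaired), and paired DESeq2 did not call the gene (adjusted p = 0.18). ALDOA, the main isozyme with more than 99% of the family's TPM in each library, was not called, at 1238 and 1266 CPM against 1244 and 1138 CPM.

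The PFKFB enzymes make and remove fructose 2,6-bisphosphate, the strongest activator of phosphofructokinase, and their genes diverged. PFKFB3, the isozyme with the strongest bias to synthesis and a known hypoxia target, was at 588 and 578 CPM with the EV and at 334 and 359 CPM with the FCN3 virus. The groups were far apart beside the spread within each. Its log2 fold change was −0.75 (SE 0.05, edgeR adjusted p = 1.2e-18, paired; 0.012 unpaired), or 0.594 of the EV level, and −0.36 on the ACTB and HPRT1 scale, where it was still called. PFKFB2, the heart-type isozyme, was higher, with a log2 fold change of 0.47 and 20.2 and 20.1 CPM against 28.1 and 27.8 CPM; its exons overlap YOD1 on the opposite strand. PFKFB4 was not called, at 8.56 and 13.6 CPM with the EV and 9.40 and 13.9 CPM with the FCN3 virus. Per length, PFKFB3 remained by far the main isozyme, its share of the family's TPM being 95.9% and 94.8% with the EV and 91.4% and 90.6% with the FCN3 virus.

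Lower glycolysis yields ATP and pyruvate. GAPDH, the most abundant of all 37 genes per length (8960 and 9215 TPM with the EV, 8299 and 8383 TPM with the FCN3 virus), stood at 5935 and 6152 CPM with the EV and at 5976 and 5942 CPM with the FCN3 virus. The CPM ranges overlapped, while the TPM were lower in both FCN3 libraries. FCN3 itself took 4.16% and 4.47% of all TPM in these libraries, and its part in the difference was not tested. Its log2 fold change of −0.02 (SE 0.05, edgeR adjusted p = 0.78, paired) became 0.38 on the ACTB and HPRT1 scale. The 4 enzymes beyond GAPDH were all lower on the TMM scale: phosphoglycerate kinase PGK1 by a log2 fold change of −0.18, phosphoglycerate mutase PGAM1 by −0.37, and the enolases ENO1 by −0.22 and ENO2 by −0.43, of which PGK1, PGAM1 and ENO1 turn to 0.22, 0.03 and 0.17 when scaled to ACTB and HPRT1, while ENO2 is then at −0.03 and no longer called. PGK1 overlapped between the groups, at 744 and 638 CPM with the EV and 675 and 548 with the FCN3 virus, and was called because it was lower within each numbered pair. GAPDH, PGK1, PGAM1 and ENO1 have near-identical copies elsewhere in the genome, among which RSEM divides shared reads. ENO1 also overlaps an antisense transcript.

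Lactate production and export held some of the clearest differences. LDHA, the lactate dehydrogenase subunit that favours lactate formation, was measured at 2083 and 1941 CPM with the EV and at 1297 and 1208 CPM with the FCN3 virus. Both FCN3 libraries lay well below both EV libraries, and the pairs gave nearly the same difference (both −0.68). The fitted log2 fold change was −0.68 (SE 0.05, edgeR adjusted p = 1.8e-17, paired; 0.021 unpaired), or 0.622 of the EV level, and it stayed lower on the ACTB and HPRT1 scale at −0.29. LDHB, the subunit that favours pyruvate, was not called at −0.11. As a share of the TPM of both subunits, LDHA went from 47.5% and 47.1% with the EV to 38.2% and 37.0% with the FCN3 virus.

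SLC16A3 (MCT4), a lactate exporter of glycolytic cells and a HIF target, gave 98.8 and 90.1 CPM with the EV and 68.5 and 51.9 CPM with the FCN3 virus. The groups did not overlap, and replicate 2 was the lower library in both. The log2 fold change was −0.65 (SE 0.06, edgeR adjusted p = 6.6e-13, paired; 0.066 unpaired), and −0.26, still called, on the ACTB and HPRT1 scale. The exons of SLC16A3 overlap those of CSNK1D on the opposite strand. SLC16A1 (MCT1), which moves lactate in either direction, was called higher at 0.22 although its libraries overlapped (108 and 83.2 CPM against 115 and 106 CPM). The share of SLC16A3 in the TPM of both carriers was 64.7% and 68.4% with the EV and 54.2% and 49.6% with the FCN3 virus, so that the carriers came near to parity.

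Pyruvate dehydrogenase kinases keep pyruvate out of mitochondria by switching off pyruvate dehydrogenase. PDK1, the HIF-induced kinase, was at 10.0 and 8.90 CPM with the EV and at 11.97 and 11.31 CPM with the FCN3 virus. The FCN3 libraries were the higher in both pairs, but the log2 fold change of 0.29 (SE 0.11, edgeR adjusted p = 0.032, paired) missed the threshold. PDK3 was not called at 0.07.

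**Figure D2:**
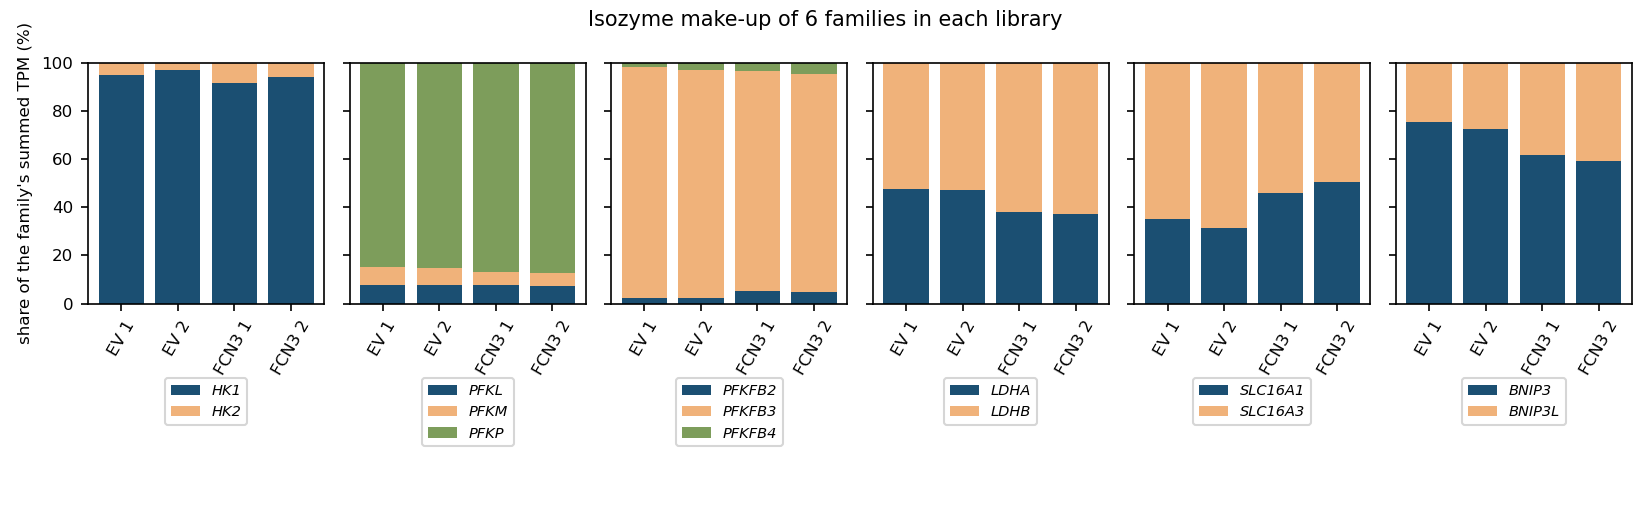
Share of each isozyme or carrier in the summed TPM of its family (percent, from 0 to 100) in the EV and FCN3 libraries, 1 bar per library and 1 panel per family. The LDHA, SLC16A3 and PFKFB3 shares are smaller and the BNIP3L share larger in both FCN3 libraries than in either EV library, whereas PFKP holds over 84% of its family everywhere.

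HIF1A mRNA, the oxygen-regulated subunit, was measured at 305 and 308 CPM with the EV and at 297 and 304 CPM with the FCN3 virus. All 4 libraries lay within a narrow band in which both FCN3 values were slightly the lower. The log2 fold change was −0.03 (SE 0.05, edgeR adjusted p = 0.65, paired), and 0.37 on the ACTB and HPRT1 scale. The prolyl hydroxylases that mark HIF1A for degradation were lower. EGLN1 (PHD2), the main oxygen sensor of this family and itself a hypoxia-induced gene, was at 102 and 106 CPM with the EV and at 70.2 and 59.7 CPM with the FCN3 virus. The groups were well apart, with a log2 fold change of −0.68 (SE 0.06, edgeR adjusted p = 1.7e-13, paired; 0.028 unpaired) that remained lower on the ACTB and HPRT1 scale at −0.28. EGLN3 (PHD3), the most strongly hypoxia-inducible member, was rare, at 5.82 and 4.90 CPM with the EV and 4.10 and 3.47 CPM with the FCN3 virus. Its groups did not overlap, but the log2 fold change of −0.50 (SE 0.16, edgeR adjusted p = 0.0093, paired; 0.21 unpaired) lay close to the threshold. It was −0.12 (edgeR adjusted p = 0.51) on the ACTB and HPRT1 scale, and paired DESeq2 gave an adjusted p of 0.32, so that the call was lost under both.

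The membrane carbonic anhydrases set the pH around hypoxic cells. CA12 stood at 515 and 607 CPM with the EV and at 315 and 337 CPM with the FCN3 virus. Both FCN3 libraries were far below both EV libraries, and the log2 fold change of −0.78 (SE 0.05, edgeR adjusted p = 4.2e-19, paired; 0.020 unpaired) was the largest decrease among the 36 tested genes on the TMM scale and was still called at −0.38 on the ACTB and HPRT1 scale. CA9, a standard marker of hypoxic tumour cells, was close to the detection limit, with 12 and 22 counts with the EV and 3 and 7 counts with the FCN3 virus (0.33 and 1.31 CPM against 0.088 and 0.35 CPM). Each FCN3 library was below the EV library of its number, but replicate 2 was the higher in both groups and the ranges overlapped in CPM. It entered the comparison only when low-count genes were kept, where edgeR gave a log2 fold change of −1.87 (SE 0.51, adjusted p = 0.011, paired) and paired DESeq2 an adjusted p of 0.21. CA9 was at most 0.59% of the TPM of both carbonic anhydrases in any library, and its exons overlap ARHGEF39 on the opposite strand.

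ADM (adrenomedullin), a secreted vasoactive peptide induced by hypoxia, was measured at 45.1 and 79.4 CPM with the EV and at 31.9 and 53.4 CPM with the FCN3 virus. The groups overlapped, because the replicate 2 library was much the higher within each virus. Its log2 fold change between the viruses was −0.53 (SE 0.07, edgeR adjusted p = 1.0e-09, paired; 0.40 unpaired), and −0.14 on the ACTB and HPRT1 scale, where it was not called (edgeR adjusted p = 0.17). The difference between replicate 2 and replicate 1 was larger, at 0.78. Leaving out 1 library, without pairing, moved the log2 fold change to −0.90 (without EV replicate 1), −0.10 (without EV replicate 2), −0.22 (without FCN3 replicate 1) or −0.96 (without FCN3 replicate 2).

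Both BNIP3L and NDRG1 were higher. BNIP3L (NIX), a mitochondrial outer-membrane receptor for mitophagy, was at 59.4 and 57.3 CPM with the EV and at 102 and 103 CPM with the FCN3 virus. Libraries within a group were almost equal and the groups were far apart, with a log2 fold change of 0.81 (SE 0.06, edgeR adjusted p = 7.2e-17, paired; 0.011 unpaired). Its paralogue BNIP3 was not called at −0.10, so that the BNIP3L share of the pair's TPM was 24.3% and 27.5% with the EV and 38.2% and 40.9% with the FCN3 virus. The exons of BNIP3L overlap those of PNMA2 on the opposite strand. NDRG1, a gene induced by hypoxia, iron loss and other stresses, was at 83.0 and 97.7 CPM with the EV and at 169 and 172 CPM with the FCN3 virus. Its groups did not overlap, and the log2 fold change of 0.92 (SE 0.06, edgeR adjusted p = 7.6e-20, paired; 0.013 unpaired) was a 1.89-fold increase.

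The remaining targets moved less or were rare. KDM3A, a histone demethylase that HIF induces, was called higher at a log2 fold change of 0.25. P4HA1, a collagen prolyl hydroxylase subunit, had 0.20 with an edgeR adjusted p of 0.015 (paired) and was not called. ANKRD37 had −0.70 with a standard error of 0.35 at about 1 CPM, was not called, and shares exon positions with UFSP2 on the opposite strand.

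**Figure D3:**
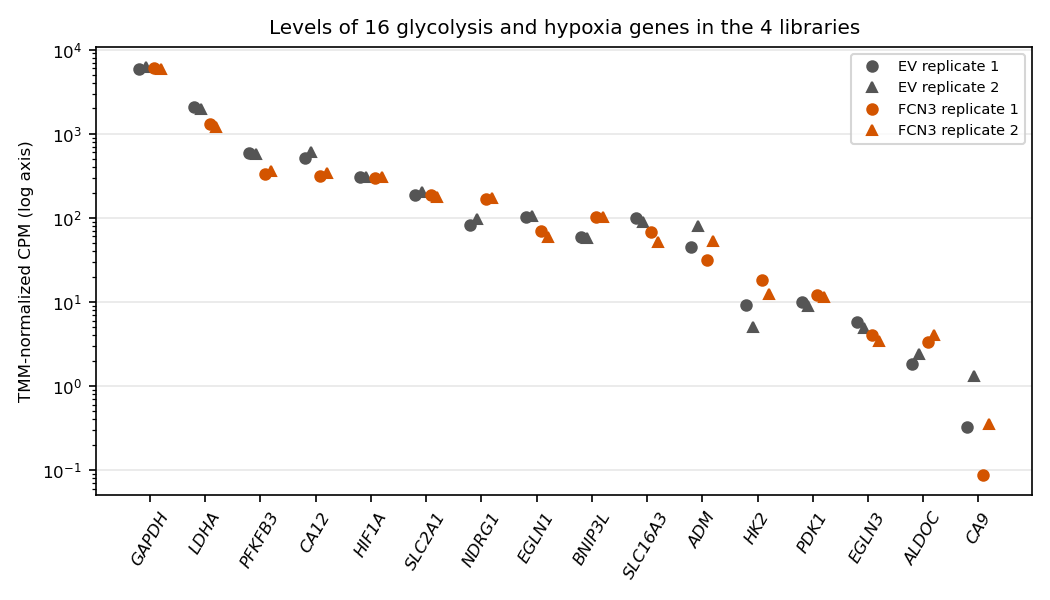
TMM-normalized CPM (log axis) of 16 glycolysis and hypoxia genes in each of the 4 libraries, with grey symbols for EV, orange for FCN3, circles for replicate 1 and triangles for replicate 2. LDHA, PFKFB3, CA12, EGLN1 and SLC16A3 lie lower and NDRG1, BNIP3L and HK2 higher in both FCN3 libraries, whereas GAPDH, SLC2A1, ADM and CA9 overlap.

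The replicate number itself separated part of these genes. In the paired fit it was called for 12 of the 36 genes, beside 22.2% of all tested genes, and 10 of the 12 were also called between the viruses. SLC2A3, PFKFB4, ENO2, CA12, ADM and KDM3A were higher in replicate 2, and HK2, PGK1, PGAM1, SLC16A1, SLC16A3 and BNIP3 in replicate 1. The largest differences (replicate 2 minus replicate 1, log2) were 0.78 for ADM, −0.69 for HK2 and 0.61 for PFKFB4. For LDHA, BNIP3L, PFKFB3, NDRG1, EGLN1 and CA12 the difference between the viruses was at least 4 times that between the numbers in absolute size. Under either virus the deeper library was replicate 1, and what the number stands for was not tested.

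**Figure D4:**
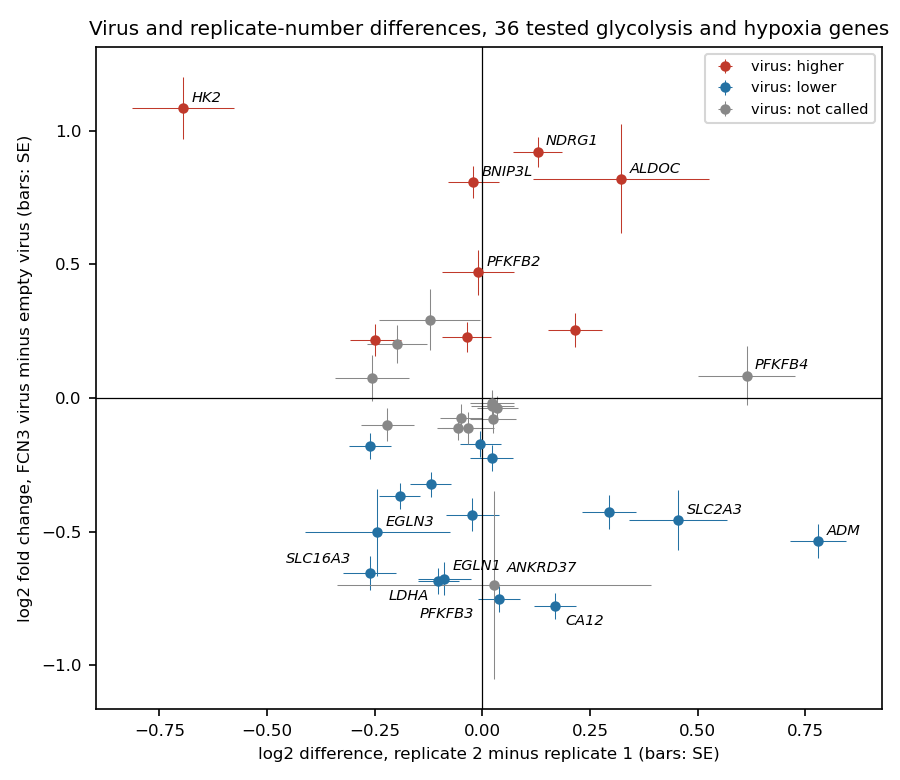
Log2 difference between the viruses (vertical, FCN3 minus EV) against that between the replicate numbers (horizontal, replicate 2 minus replicate 1) for the 36 tested genes, with standard errors as bars and colour for the call between the viruses. HK2 at the upper left and ADM at the lower right differ along both axes, while LDHA, PFKFB3, EGLN1, CA12, BNIP3L and NDRG1 lie close to the vertical axis.

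Summed over the 37 genes, their TPM made up 2.31% and 2.29% of the EV libraries and 1.94% and 1.91% of the FCN3 libraries. With FCN3 itself taken out of the totals the latter were 2.02% and 2.001%. The sum was dominated by GAPDH, ENO1, LDHB, LDHA, TPI1 and ALDOA, so that it says little about the rarer hypoxia targets.

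Other genes of the same pathways were read from a list of 95, of which 82 were tested: 28 were higher, 15 were lower and 39 were not called (52.4% called, against 36.2% of all tested genes). Of the 39 genes listed here as other hypoxia targets 21 were higher and 4 lower, beside 19.1% and 17.1% of all tested genes. The median of their log2 fold changes was 0.32. The list is not limited to genes that only hypoxia induces, so these counts are no measure of a hypoxia response. What raised or lowered them was not tested. The 8 tested targets among the 37 genes gave 3 higher and 2 lower, with a median of 0.05; the difference between these lists was not tested. STC2, a secreted glycoprotein also induced by endoplasmic reticulum stress, had a log2 fold change of 1.32. It was at 122 and 58.7 CPM with the EV and at 256 and 180 CPM with the FCN3 virus. Its difference between replicate 2 and replicate 1 was −0.77, and its edgeR adjusted p was 0.11 unpaired. VEGFA, the angiogenic factor, had a log2 fold change of 0.75 (36.28 and 36.02 CPM against 57.0 and 65.4 CPM). HILPDA, a lipid-droplet protein, was the largest decrease among these targets at −0.44.

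Around pyruvate, PDK4 had the largest decrease of the 82 genes: 13.03 and 4.24 CPM with the EV and 1.42 and 0.80 CPM with the FCN3 virus, a log2 fold change of −3.01. PDK2 was lower as well (−0.55), as was pyruvate carboxylase PC (−0.66), while PDP1, the phosphatase that switches pyruvate dehydrogenase back on, was higher (1.08). Exons of PDK2 overlap SAMD14 and those of PC overlap LRFN4, both on the opposite strand. Of the 17 tested genes listed here as other glycolysis genes, not all of them enzymes of glycolysis itself, 4 were higher and 3 lower. PCK2, the mitochondrial enzyme that makes phosphoenolpyruvate, had the largest increase (17.6 and 21.3 CPM against 77.2 and 85.0 CPM, log2 fold change 2.07), followed by the hexokinase-like HKDC1 (1.03). The pyruvate kinase gene PKM was lower, at −0.26. In the HIF pathway EGLN2 was lower (−0.36), and EPAS1 (−0.11) and VHL (0.14) were not called. The exons of EGLN2 overlap those of RAB4B-EGLN2 on the same strand. Without the pairing, edgeR called only PCK2 (adjusted p = 0.0030) and HKDC1 (0.0056) among the 82 genes. Scaled to ACTB and HPRT1, with the pairing, 56 of the 82 were called higher and 1 lower. Most of the decreases in these lists were therefore not called on the ACTB and HPRT1 scale.

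**Figure D5:**
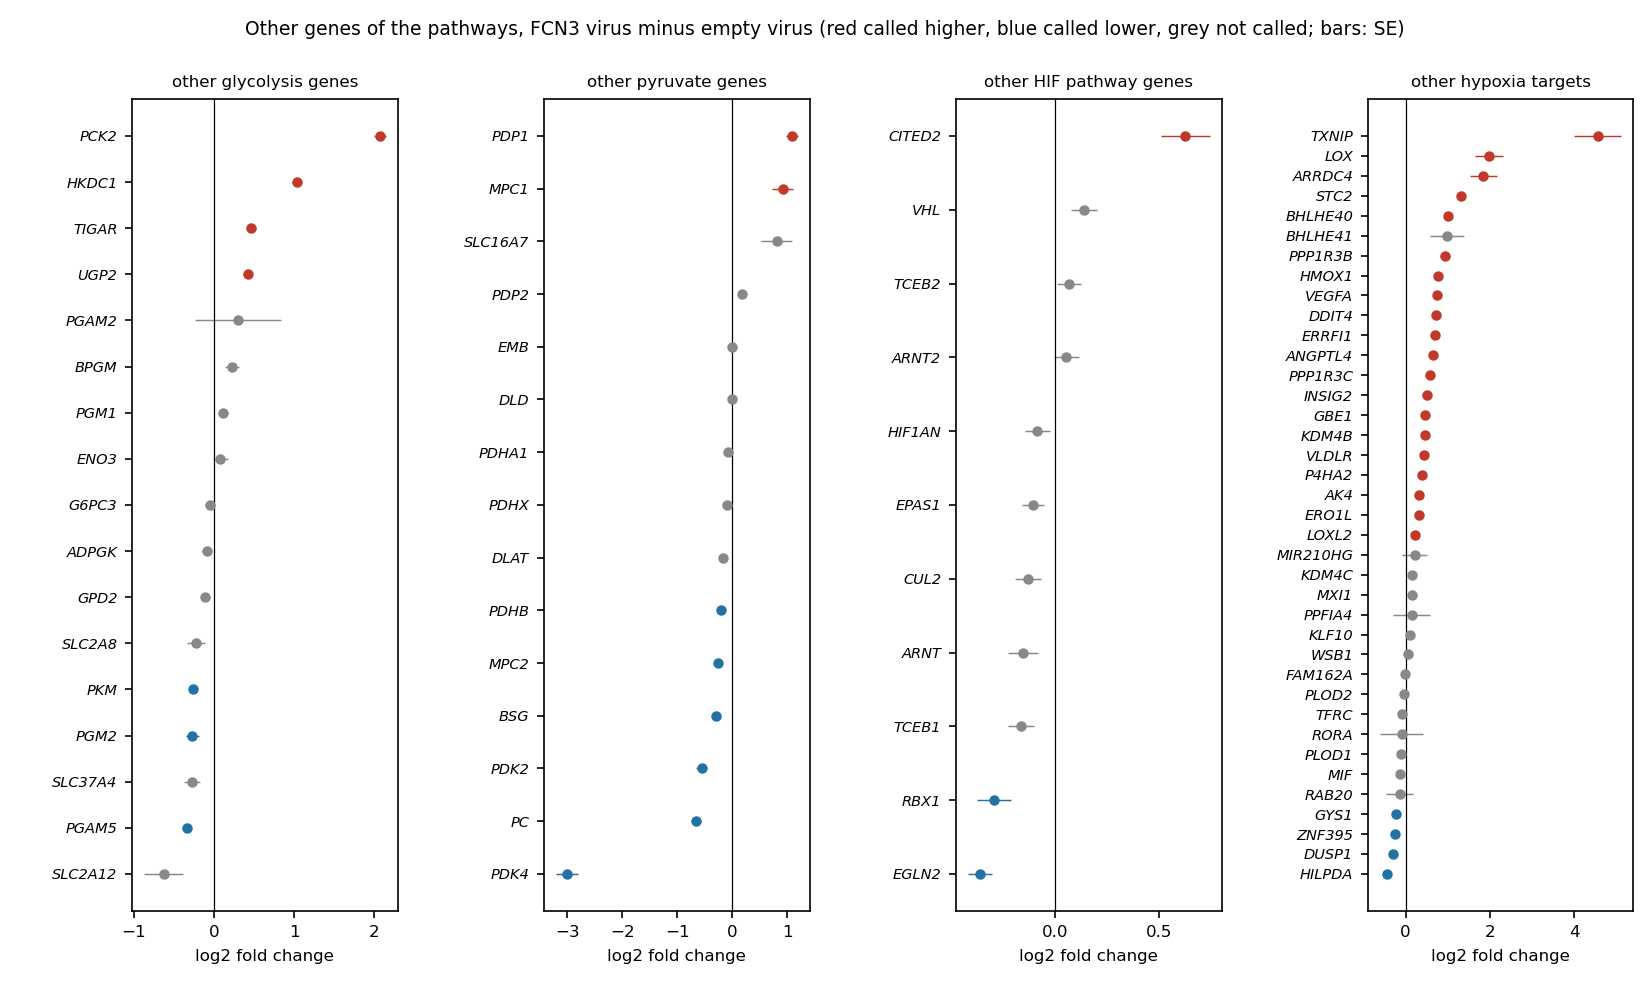
Log2 fold changes (FCN3 virus minus empty virus, bars for standard errors) of the other tested genes in 4 lists, 1 gene not drawn, each panel with its own horizontal scale, coloured by the paired call on the TMM scale. PCK2 and HKDC1 lead the glycolysis list and PDK4 stands alone at the low end of the pyruvate list. TXNIP, LOX and ARRDC4, at the top of the genes listed as hypoxia targets, are rare and were named here after their values were seen.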

How the data were processed

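RNA of 2 EV and 2 FCN3-virus libraries of A549 was sequenced from stranded mRNA libraries as paired-end reads. Reads were trimmed, then mapped on hg19 by the authors with STAR 2.6.1d, and abundance was estimated with RSEM; the strand setting of the counting is not given in the sources used here. The deposited tables hold the authors' expected counts (raw, not always whole numbers) and TPM, normalized by RSEM for length and depth. Deposited transcript lengths, another measure in those tables, changed little for these genes. FPKM was not used.

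After rounding, expected counts were tested in R 4.3.3 with edgeR 4.0.16 (TMM, filterByExpr, quasi-likelihood test, replicate number as a block, Benjamini-Hochberg adjustment over 14099 genes, threshold 0.01). DESeq2 1.42.0 and limma 3.58.1 on log2(TPM + 1) were alternatives. Standard errors are those of the log2 fold change. The scripts were tested on simulated data. CPM are TMM-normalized, and levels of different genes are set side by side only as TPM. The 4 libraries held 16353554 to 35733735 counts; floors of 3 counts cover counting error only.

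The pairing comes from the replicate numbers in the labels, which do not say what a number marks. Across 8310 well-expressed genes the difference between the EV libraries correlated with that between the FCN3 libraries (Pearson's r = 0.806; the points are genes and not independent). The labels do not say that libraries came from separate cultures, so the spread behind any p-value here may be technical. Paired p-values measure how far the 2 numbered pairs disagree, with spread shared across genes. The difference between replicate numbers is left out of them and counts only in the unpaired p-values.

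The genes, gene lists and tests were chosen with earlier results of these data known. Values per library are given for called genes whose log2 fold change reached 0.5 in absolute size and for SLC2A1, HK2, GAPDH, LDHA, PDK1, HIF1A and CA9; some others are added where an isozyme or an overlap is described. Other pathway genes named are the 5 largest called increases and 5 largest called decreases whose average log2 CPM was 1 or more, plus VEGFA, EPAS1, VHL and PKM; 1 gene that the rule names is left out of the text. Promoter sequences are from RefSeq on GRCh38.p14, whereas exon overlaps were read from GENCODE on GRCh37.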

Additional observations from a re-analysis of the deposited data

How the results depend on the processing

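Counts of called genes are given as glycolysis and hypoxia genes higher and lower, then other pathway genes higher and lower. With the replicate block they were 8 and 15, then 28 and 15. With no replicate block edgeR gave 0 and 0, then 2 and 0, and DESeq2 gave 2 and 5, then 10 and 1; DESeq2 with the block gave 3 and 11, then 20 and 7. Scaling to ACTB and HPRT1 gave 20 and 5, then 56 and 1, with 94.9% of all calls higher against 52.7% on the TMM scale, and turned the log2 fold changes of SLC2A1 to 0.32, GAPDH to 0.38 and HIF1A to 0.37. On log2(TPM + 1), limma gave 4 and 17, then 21 and 19, with 30.7% of all calls higher. Genes called for the replicate number went from 12 to 3 with DESeq2, 5 on the ACTB and HPRT1 scale and 6 with no filter. Leaving out 1 library, without the block since a pair is broken and with the lone library assumed to vary like the other group, gave 0 to 1 higher and 0 to 1 lower, then 1 to 6 and 0 to 1. The causes of these shifts were not tested.

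RLE factors, FCN3 left out before normalization, the older quasi-likelihood fit, a minimum of 10 counts in each library and an FDR of 0.05 kept all of these virus counts within 1.5 times, as did no filter. Over 15 genes with full statistics and 14 alternatives each, 143 fold changes kept direction and side of the threshold, 63 kept the direction but missed the threshold, 1 (PDK1 on the ACTB and HPRT1 scale) passed it newly and 3 reversed. Of the 143, SLC2A1, GAPDH, PDK1 and HIF1A gave 13 each, and these genes were not called in the main fit. With 2 libraries a group, the paired calls rest on 1 residual degree of freedom per gene, with spread shared across genes. The meaning of the replicate number is unknown. CA9 had too few counts to pass the filter on low counts.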
